A study of Homo sapiens with 15 samples.

Results

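The genes described here were the expressed ZNF zinc finger genes of a human kidney cell line made to express an added RNA helicase UPF1, or GFP in its place. A gene belonged to the set when its symbol was ZNF followed by digits only and its mean over the 3 GFP total RNA libraries was at least 1 TPM, a measure of transcript share scaled by length and library size. The table listed 364 such symbols among 12261 genes, and 199 reached that level. The genes were therefore chosen by their level in GFP cells, which is a description and is not tested. Just inside the limit were ZNF691, ZNF490 and ZNF668, and just outside it were ZNF189, ZNF14 and ZNF738, with GFP means of 1.00, 0.996 and 0.992 TPM.

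The cells were HEK-293 Trex, a long-used line derived from human embryonic kidney in which doxycycline switches on the inserted gene. They expressed CLIP-tagged UPF1 isoform 1 (UPF1-1), CLIP-tagged UPF1 isoform 2 (UPF1-2) or GFP, and every culture received 200 ng/mL doxycycline. There were 15 libraries in 5 groups of 3, namely RNA purified with the tagged protein (IP) from UPF1-1 cells and from UPF1-2 cells, and total RNA from UPF1-1, UPF1-2 and GFP cells. A purification with GFP was not analysed here, each construct was in a line of its own, and nothing said whether replicates were separate cultures. Line and protein cannot be told apart, and the p-values below measure the spread between these samples only.

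UPF1 is the central helicase of nonsense-mediated decay (NMD), in which translating ribosomes that stop early or far from the end of an mRNA lead to its destruction, and its isoforms differ in a regulatory loop of the helicase core. ZNF genes encode proteins with repeated C2H2 zinc fingers that mostly bind DNA. Many carry a KRAB domain, which recruits the co-repressor TRIM28 and the histone methyltransferase SETDB1 to silence mobile elements, and such genes lie in large clusters on chromosome 19. The name is given by fold and not by role, so it also covers proteins that act on RNA or ribosomes.

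ZNF transcripts were scarce in these cells. Their mean in GFP total RNA had a median of 1.82 TPM and a maximum of 15.8 TPM, with 110 of the 199 genes under 2 TPM and 22 at or above 5 TPM. Of the genes, 94 lay on chromosome 19 and 105 elsewhere, and 197 were annotated as protein coding. ZNF271 and ZNF542 were transcribed pseudogenes, and ZNF259 is now named ZPR1. The mean estimated count behind a gene's total RNA values ranged from 10.7 for ZNF169 to 7641, with a median of 737. Together the 199 genes made up 0.799% ± 0.0273 of the TPM of all listed genes in UPF1-1 IPs and 0.696% ± 0.0305 in UPF1-2 IPs. In total RNA their share was 0.358% ± 0.0172 for UPF1-1, 0.361% ± 0.0452 for UPF1-2 and 0.351% ± 0.0247 for GFP (SD, n = 3 each). Both IP shares lay above the total RNA shares by more than their spread, while the total RNA shares lay within theirs. Shares of summed TPM are weighted by abundant genes. Gene by gene, with library medians set equal, the median log2 ratio of IP to total RNA was 0.11 with UPF1-1 and 0.09 with UPF1-2. Over all genes it was -0.16 and -0.15.

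The most abundant member in GFP cells was ZNF146 on chromosome 19, a protein made almost only of zinc fingers. It had 14.5, 14.8 and 10.9 TPM in UPF1-1 total RNA, 12, 12.7 and 19.3 TPM in that of UPF1-2, and 15.7, 16.7 and 15.1 TPM in that of GFP. The groups overlapped. The X-linked activator ZNF711, linked to intellectual disability, followed with 16.0, 14.1 and 10.5 TPM in UPF1-1, 10.3, 10.8 and 17.2 TPM in UPF1-2, and 15.5, 14.4 and 12.8 TPM in GFP total RNA. The next by GFP mean were ZNF511, ZNF428, ZNF32, ZNF622, ZNF226, ZNF259, ZNF227 and ZNF664.

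UPF1, the induced gene, had 129 ± 49.8 TPM in UPF1-1, 104 ± 57.9 TPM in UPF1-2 and 5.20 ± 2.93 TPM in GFP total RNA (SD, n = 3 each). Both UPF1 lines lay far above GFP, and the values of the 2 UPF1 lines overlapped. Within replicate numbers, however, UPF1 was higher in UPF1-1 than in UPF1-2 total RNA. The log2 difference was 0.31 ± 0.07 (SE) with library medians set equal (limma adjusted p = 0.036). Listed genes held 14.6 to 15.8% of the TPM scale in the means of the total RNA groups and 54.2 and 54.6% in those of the IPs. Of 7 HEK-293 markers 6 were in the table, with summed levels of 154 to 274 TPM in total RNA, and NEFM was not listed; 0 of 8 markers of blood cells, hepatocytes and fibroblasts were listed. In bulk RNA, fewer cells of a type and less RNA per cell cannot be told apart. Replicate 3 stood apart from replicates 1 and 2 in every group, and the ZNF genes shared in this.

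In replicate 3, 100 of the 198 ZNF genes with values in both fits (50.5%) lay below the mean log2 of replicates 1 and 2 in all 5 groups, with library medians set equal, and 52 (26.3%) lay above it in all 5. Among all 9320 genes with such values the shares were 39.9% below and 33.3% above. On chromosome 19, 60 of 93 ZNF genes were lower in all 5 groups and 13 higher, against 40 and 39 of the 105 elsewhere. ZNF580 had 1.34, 1.31 and 7.08 TPM in UPF1-1, 1.32, 1.60 and 6.56 TPM in UPF1-2, and 1.34, 1.45 and 6.95 TPM in GFP total RNA for replicates 1, 2 and 3. ZNF609 and ZNF302 are named after their values were seen. ZNF609, also known as the host of a circular RNA, had 0.421, 0.821 and 3.55 TPM in UPF1-1 and 0.252, 0.242 and 3.68 TPM in UPF1-2. In GFP total RNA it had 0.409, 0.377 and 2.70 TPM, so replicate 3 alone carried it past the limit of 1 TPM. ZNF302 went the other way, with 2.02, 1.84 and 0.189 TPM in UPF1-1, 1.76, 1.97 and 1.89 TPM in UPF1-2 and 2.62, 2.78 and 1.13 TPM in GFP total RNA. With equal library medians, its replicate 3 deviated from the others by -2.22 to -0.83 on the log2 scale in the 5 groups. Both directions were shared by lines and by IP and total RNA. The differences below were therefore formed within replicate numbers, with the number as a block in limma.

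The first comparison asked which ZNF transcripts were over- or under-represented in RNA purified with each isoform. Recovery is the log2 ratio of IP to total RNA of the same isoform and replicate number. It was taken on log2(TPM + 0.5), after the medians of the libraries were set equal. The word culture below stands for an isoform and replicate number. No label said that an IP and a total RNA library of the same number came from the same culture. Setting medians equal removed 2.56 with UPF1-1 and 2.53 with UPF1-2, so a recovery of 0 still means several times more TPM in the IP. Without that step 195 of the 199 genes were higher and 1 lower with UPF1-1, and 198 higher and 1 lower with UPF1-2. Of all genes, 95.8% were then higher with UPF1-1 and 96% with UPF1-2. The direction of recovery is thus relative to the median listed transcript of each library.

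With UPF1-1, 84 of 199 ZNF genes were higher (42.2%) and 63 lower (31.7%) at an adjusted p of 0.05, where 30.8% of all 11969 genes tested were higher and 43.9% lower. With UPF1-2, 76 were higher (38.2%) and 64 lower (32.2%), against 31.5% and 44.2% of all genes. The median ZNF recovery was 0.11 with UPF1-1 and 0.09 with UPF1-2, against -0.16 and -0.15 over all genes. Each gene was tested by limma with Benjamini-Hochberg adjustment over all genes, and the set was not tested against the table. Without the culture as a block, 56 ZNF genes were higher (28.1%, against 19.8% of all genes) and 43 lower (21.6%, against 32.0%) with UPF1-1. With UPF1-2, 47 were then higher (23.6%, against 21.1%) and 46 lower (23.1%, against 33.1%). With library upper quartiles set equal in place of medians, UPF1-2 gave 53 higher (26.6%, against 27.0%) and 71 lower (35.7%, against 49.2%), with medians of -0.03 and -0.27. The share of higher ZNF genes with UPF1-2 was thus that of the table in this setting, while the share of lower ones stayed below it.

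**Figure D1:**
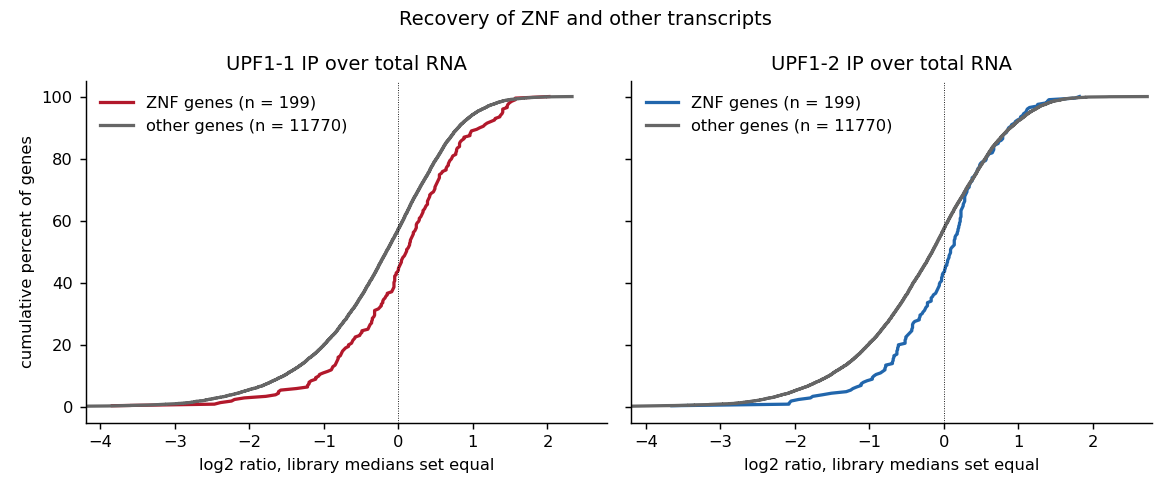
Cumulative percent of genes (vertical) by recovery on the log2 scale with library medians set equal (horizontal), for 199 ZNF genes in colour and 11770 other tested genes in grey, UPF1-1 left and UPF1-2 right. The ZNF curves lie to the right of the grey ones over most of the range, with medians of 0.11 and 0.09.

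Recoveries with the isoforms went together among ZNF genes as they did among all genes. Across the 199 genes the recoveries correlated at r = 0.93 (Spearman 0.91), a description over genes measured in libraries that share lines, depth and replicate numbers. Of the genes, 65 were higher with both isoforms and 53 lower with both. The 65 were 77.4% of those higher with UPF1-1 and 85.5% of those higher with UPF1-2. The 53 were 84.1% of those lower with UPF1-1 and 82.8% of those lower with UPF1-2. Over all 11969 genes r was 0.94 (Spearman 0.92), and the same shares were 83.1% and 81.4% for higher genes and 86.2% and 85.5% for lower ones. ZNF620 alone was higher with UPF1-1 and lower with UPF1-2, and 31 genes passed with neither; it is named after its values were seen.

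**Figure D2:**
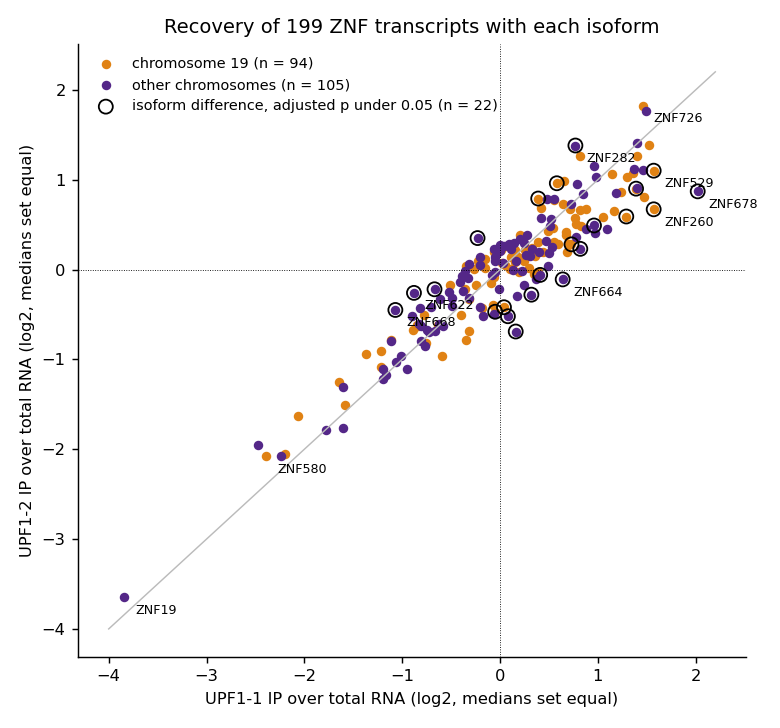
Recovery of each of 199 ZNF transcripts with UPF1-1 (horizontal) and UPF1-2 (vertical), both log2 with library medians set equal; orange points lie on chromosome 19 (94 genes) and purple points elsewhere (105), and black rings mark 22 genes whose recoveries differed between isoforms. Points follow the grey line of equal recovery, with ZNF19 alone below -3.

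Among genes with a mean of at least 2 TPM in total RNA, ZNF529 had the highest recovery with UPF1-1. It reached 55.0, 48.2 and 54.0 TPM in UPF1-1 IPs against 2.89, 2.67 and 2.07 TPM in UPF1-1 total RNA, and 32.1, 31.2 and 37.4 TPM in UPF1-2 IPs against 1.85, 2.15 and 2.81 TPM in UPF1-2 total RNA. The IP libraries lay far above the total RNA with both isoforms, and UPF1-1 IPs above UPF1-2 IPs. Recovery was 1.57 ± 0.07 (SE) with UPF1-1 (limma adjusted p = 2.8e-07) and 1.10 ± 0.07 with UPF1-2 (adjusted p = 1.6e-06).

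ZNF260, also on chromosome 19, had 40.8, 40.2 and 43.2 TPM in UPF1-1 IPs against 2.19, 1.95 and 1.59 TPM in UPF1-1 total RNA. In UPF1-2 cells it had 26.5, 29.0 and 27.8 TPM in IPs against 2.06, 2.42 and 3.35 TPM in total RNA. The IP values were nearly constant between replicates while the total RNA values were not. Its recovery was 1.57 ± 0.09 and 0.67 ± 0.09. ZNF711 had recoveries of 1.40 ± 0.09 and 0.91 ± 0.09, and IP levels of 227, 186 and 237 TPM with UPF1-1 and 133, 130 and 157 TPM with UPF1-2, the highest in the set. ZNF146, the most abundant member, had a recovery of 0.68 ± 0.10 with UPF1-1 and of 0.19 ± 0.10 with UPF1-2, where it did not pass (limma adjusted p = 0.00024 and 0.1).

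ZNF24, a SCAN domain protein, was recovered at 1.37 ± 0.11 with UPF1-1 and 1.12 ± 0.11 with UPF1-2. ZNF121 had recoveries of 1.39 ± 0.09 and 0.90 ± 0.09. ZNF644, a partner of the histone methyltransferases EHMT1 and EHMT2, had 1.19 ± 0.07 and 0.85 ± 0.07. The pseudogene ZNF542 was among these leading genes, at 1.24 ± 0.07 and 0.86 ± 0.07 (limma adjusted p = 1.3e-06 and 8.7e-06). With UPF1-2 the leading genes were ZNF282, at 1.38 ± 0.10, and ZNF3, at 1.15 ± 0.10, ahead of ZNF24, ZNF529, ZNF329 at 1.06 ± 0.07 and ZNF346 at 1.03 ± 0.08. ZNF346 binds double-stranded RNA.

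Higher recoveries still were seen among scarcer genes, which are named after their values were seen. ZNF678 had 37.5, 32.1 and 30.5 TPM in UPF1-1 IPs and 1.15, 0.980 and 0.656 TPM in UPF1-1 total RNA. In UPF1-2 cells it had 18.1, 18 and 17.3 TPM in IPs and 0.907, 1.23 and 1.63 TPM in total RNA, so its UPF1-1 IPs held far more TPM than its UPF1-2 IPs in every replicate. Recovery was 2.02 ± 0.10 with UPF1-1 and 0.87 ± 0.10 with UPF1-2. ZNF726 showed the opposite order, with 18.8, 22.0 and 21.0 TPM in UPF1-1 IPs and 35.5, 34.4 and 32.9 TPM in UPF1-2 IPs. Its recoveries, 1.46 ± 0.11 and 1.82 ± 0.11, did not pass the test of their difference (limma adjusted p = 0.18).

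Among genes of at least 2 TPM, the transcripts recovered least were led by ZNF580. Its IPs held 1.90, 1.20 and 8.25 TPM with UPF1-1, against 1.34, 1.31 and 7.08 TPM in total RNA, and 1.71, 2.74 and 9.03 TPM with UPF1-2, against 1.32, 1.60 and 6.56 TPM in total RNA. In raw TPM it was higher in the IP in 5 of 6 cultures, but by less than the median gene. Recovery was -2.39 ± 0.14 with UPF1-1 (limma adjusted p = 1.3e-06) and -2.08 ± 0.14 with UPF1-2 (adjusted p = 2.6e-06).

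ZNF768, whose protein has heptad repeats like the RNA polymerase II tail, had 5.21, 5.78 and 25.1 TPM in UPF1-1 IPs against 5.32, 5.11 and 14 TPM in UPF1-1 total RNA. Its recovery was -2.24 ± 0.13, and -2.07 ± 0.13 with UPF1-2. ZNF428 had -2.20 ± 0.08 and -2.05 ± 0.08, ZNF511 -1.78 ± 0.17 and -1.79 ± 0.17, ZNF546 -2.07 ± 0.11 and -1.63 ± 0.11, and ZNF574 -1.65 ± 0.09 and -1.25 ± 0.09. Without equal medians the recovery of ZNF580, ZNF768, ZNF428, ZNF511 and ZNF546 was positive with both isoforms, as it was for nearly all ZNF genes.

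ZNF19 was the only member at or below 0.5 TPM in every IP library. It had 0.0616, 0.232 and 0.364 TPM in UPF1-1 IPs against 0.959, 1.13 and 1.65 TPM in UPF1-1 total RNA. With UPF1-2 it had 0.223, 0.0585 and 0.288 TPM in IPs against 1.15, 0.840 and 0.973 TPM in total RNA. All IP values lay below all total RNA values, even in raw TPM. Recovery was -3.84 ± 0.19 and -3.65 ± 0.19 (limma adjusted p = 6.2e-07 and 8.7e-07). Its mean estimated count in total RNA was 61.1.

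**Figure D3:**
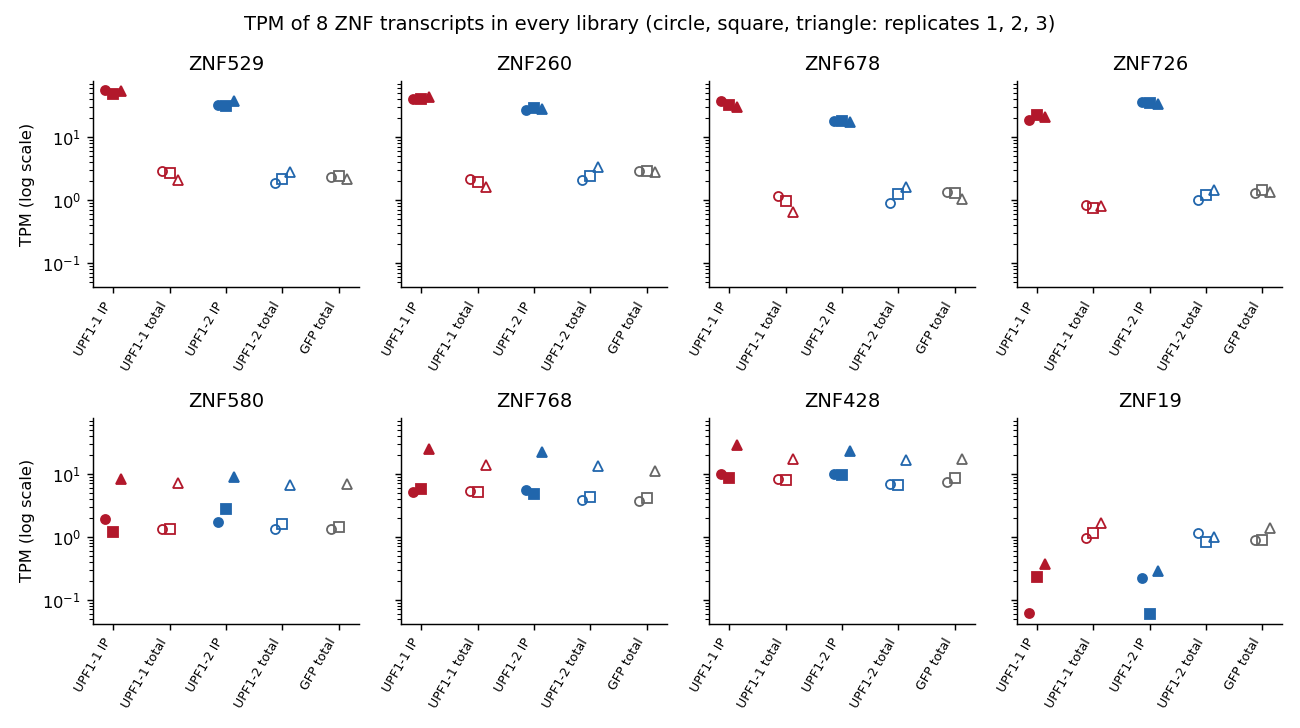
TPM on a log axis for 8 ZNF transcripts in every library, with filled symbols for IPs, open symbols for total RNA, red for UPF1-1, blue for UPF1-2 and grey for GFP. ZNF529, ZNF260, ZNF678 and ZNF726 stand far higher in IPs, ZNF580, ZNF768 and ZNF428 show the high replicate 3, and ZNF19 lies below its total RNA in all 6 IPs.

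Values follow for a few members whose proteins act on RNA or ribosomes, picked after values were seen and not a fixed list. ZNF622 and ZNF593, which are factors of large ribosomal subunit assembly, were lower with both isoforms, at -0.88 ± 0.07 and -1.61 ± 0.08 with UPF1-1 and -0.26 ± 0.07 and -1.76 ± 0.08 with UPF1-2. ZNF259 (ZPR1), a partner of the SMN protein, was also lower, at -0.73 ± 0.08 and -0.69 ± 0.08. ZNF598, the ubiquitin ligase of collided ribosomes, had -0.06 ± 0.09 with UPF1-1, where limma gave an adjusted p of 0.51, and was higher at 0.23 ± 0.09 with UPF1-2 (adjusted p = 0.039). ZNF473, the U7 snRNP protein of histone mRNA processing, was lower at -0.36 ± 0.08 and -0.22 ± 0.08. ZNF638, an RNA-binding nuclear protein, was higher at 1.40 ± 0.18 and 1.41 ± 0.18, and ZNF346 was higher as given above.

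Recovery of ZNF transcripts differed with the length of the listed transcript. A relative effective length was derived from the deposited mean estimated count and the TPM of each gene, with the median gene at 1, a step added after the data were seen. The ZNF genes ran from 0.03 to 4.57 with a median of 1.14, and were split into 3 classes at 0.93 and 1.45. The 66 short ZNF genes had a median recovery of -0.16 with UPF1-1 and -0.20 with UPF1-2, the 66 of middle length 0.08 and 0.14, and the 67 long ones 0.32 and 0.27. With UPF1-1, 35 long ZNF genes were higher (52.2%, against 46.7% of other long genes) and 13 lower (19.4%, against 23.3%). In the short class 21 were higher (31.8%, against 15.7% of other short genes) and 30 lower (45.5%, against 63.7%).

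Other genes within the same length limits showed the same order. Their medians with UPF1-1 were -0.64 in the short, 0.05 in the middle and 0.20 in the long class, and with UPF1-2 they were -0.67, 0.07 and 0.21. The ZNF genes were thus above other genes mainly in the short class and close to them at middle length. Within the short class, however, the ZNF genes were themselves longer, with a median relative length of 0.68 against 0.51 over all other listed genes of the class. Across genes, recovery and length had a Spearman rho of 0.28 with UPF1-1 and 0.32 with UPF1-2 over the 199 ZNF genes, and of 0.47 and 0.49 over 11728 others. These are descriptions over genes that share libraries and carry no test.

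**Figure D4:**
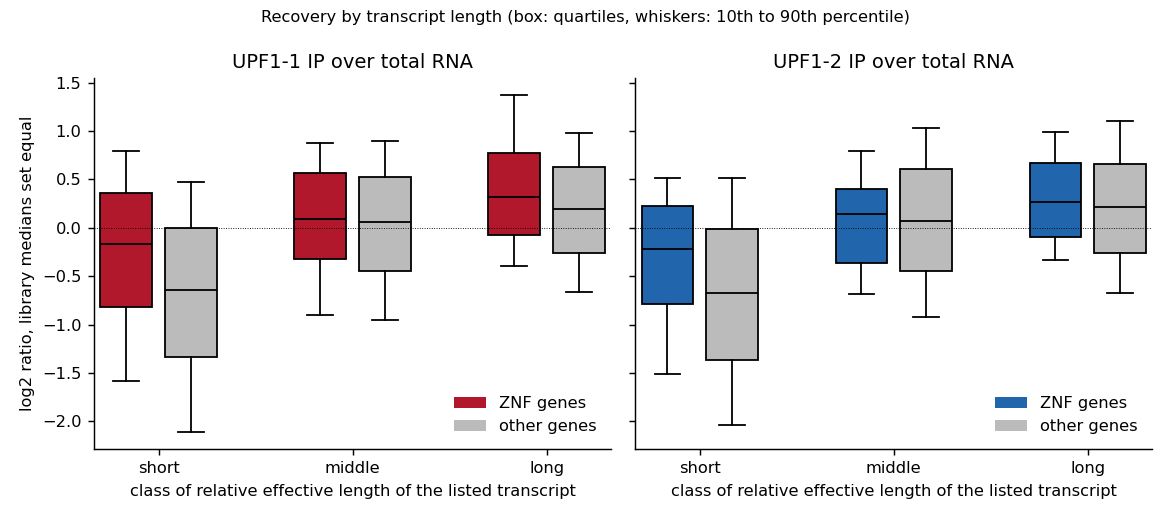
Recovery on the log2 scale with library medians set equal (vertical) for ZNF genes in colour and other genes in grey, in 3 classes of relative effective length split at 0.93 and 1.45, UPF1-1 left and UPF1-2 right. Boxes are quartiles, lines inside are medians and whiskers span the percentiles named in the title; ZNF medians with UPF1-1 are -0.16, 0.08 and 0.32 against -0.64, 0.05 and 0.20 in other genes.

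The table gives 1 transcript per gene, and for 5 ZNF genes it was very short, with a relative length under 0.2. They were ZNF169 (0.03), ZNF546 (0.09), ZNF789 (0.10), ZNF19 (0.17) and ZNF530 (0.19). Of these ZNF19, ZNF789 and ZNF546 were among the least recovered, and ZNF789 had -2.47 ± 0.20 with UPF1-1 and -1.95 ± 0.20 with UPF1-2. Without these 5 genes 84 ZNF genes were higher and 59 lower with UPF1-1, and 76 higher and 60 lower with UPF1-2. How far short listed transcripts set these low values was not tested.

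ZNF genes on chromosome 19 had a higher median recovery than those elsewhere, which is given without a test. With UPF1-1 46 of 94 were higher and 24 lower, with a median of 0.22, against 38 and 39 of 105 elsewhere, with a median of 0.00. With UPF1-2 42 were higher and 25 lower, with a median of 0.19, against 34 and 39 elsewhere, with a median of -0.02. The difference of medians was 0.21 with each isoform; with a pseudocount of 0.1 it was 0.11 with UPF1-2, and without replicate 2 it was 0.13. Genes that sit next to each other did not share their recovery closely. The median absolute difference over 41 neighbouring pairs on chromosome 19 was 0.64 with UPF1-1 and 0.66 with UPF1-2, against 0.76 and 0.65 over all pairs there.

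The 35 related zinc finger genes named ZFP, ZBTB, ZSCAN or ZKSCAN that met the same level had similar medians, 0.13 with UPF1-1 and 0.12 with UPF1-2. With UPF1-1, 15 were higher (42.9%, against 30.8% of all genes) and 8 lower (22.9%, against 43.9%). With UPF1-2, 14 were higher (40.0%, against 31.5%) and 11 lower (31.4%, against 44.2%).

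The next comparison asked whether the isoforms recovered ZNF transcripts differently. The difference of recoveries, UPF1-1 minus UPF1-2, was positive at an adjusted p of 0.05 in 15 of 199 ZNF genes (7.54%, against 4.43% of all genes) and negative in 7 (3.52%, against 6.27%). Its median was 0.00 over ZNF genes and -0.04 over all genes. The split depended on scaling: with upper quartiles set equal 28 ZNF genes were positive (14.1%, against 7.07% of all genes) and 3 negative (1.51%, against 3.83%). In the blocked fit 66 of 199 had an unadjusted p under 0.05, against 3488 of all 11969 genes. By limma 0 of 199 passed without the culture block, without equal medians, without replicate 1 or without replicate 2. The whole table also gave 0 in each of these settings, so these zeros are not particular to ZNF genes. Without replicate 3, 12 were positive (6.06%, against 4.45% of all genes) and 3 negative (1.52%, against 4.95%).

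ZNF260 had the largest positive difference among genes of at least 2 TPM, at 0.89 ± 0.13 (limma adjusted p = 0.015). ZNF664 followed at 0.75 ± 0.12 (adjusted p = 0.016). Its IPs held 46.9, 48.0 and 80.8 TPM with UPF1-1 and 38.1, 35.8 and 54.4 TPM with UPF1-2, while its total RNA held 5.25, 5.64 and 6.37 TPM in UPF1-1 cells and 5.31, 6.91 and 11.3 TPM in UPF1-2 cells. UPF1-1 was thus higher in each replicate of the IP and lower in each replicate of the total RNA. ZNF367 differed by 0.60 ± 0.15, with 15.2, 13.3 and 21.7 TPM in UPF1-1 IPs and 8.98, 8.39 and 14.4 TPM in UPF1-2 IPs. It was lower with UPF1-2, at -0.52 ± 0.10, and had 0.08 ± 0.10 with UPF1-1 (limma adjusted p = 0.52). ZNF121, ZNF770 and ZNF529 differed by 0.49, 0.47 and 0.46.

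The negative differences were led by ZNF622 and ZNF282, both at -0.62, with adjusted p of 0.017 and 0.034 by limma, and by ZNF324 at -0.40. ZNF622 had 25.4, 22.1 and 62.8 TPM in UPF1-1 IPs and 35.3, 28.2 and 77.6 TPM in UPF1-2 IPs. It was lower in the UPF1-1 IP of each replicate, although its total RNA was 8.20, 7.44 and 15.9 TPM in UPF1-1 cells and 6.28, 6.22 and 15.4 TPM in UPF1-2 cells. ZNF282, a binder of a human T-cell leukaemia virus promoter element, had 22.9, 19.5 and 68.8 TPM in UPF1-1 IPs and 25.8, 22.5 and 74.1 TPM in UPF1-2 IPs.

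The total RNA of both lines enters this difference. Among the 15 genes with a positive difference, UPF1-1 minus UPF1-2 was positive in the IPs alone for 15 and negative in total RNA for 12, of which 3 passed the total RNA test. Among the 7 with a negative difference it was negative in the IPs for 7 and positive in total RNA for 7, of which 1 passed. For ZNF260 the IPs alone differed by 0.54, 0.45 and 0.51 in replicates 1, 2 and 3, and for ZNF282 by -0.24, -0.22 and -0.22. For ZNF678 they differed by 0.96, 0.80 and 0.69, and its difference of recoveries, at 1.14 ± 0.14, was the largest of the set.

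Total RNA was then compared between the 2 UPF1 lines, which did not enter the choice of the genes. ZNF221 fell below the filter, so 198 genes were tested. UPF1-1 was higher in 8 ZNF genes (4.04%, against 5.49% of 9325 genes) and lower in 6 (3.03%, against 4.02%), so the shares were a little under those of the table. The median difference was 0.03, and 48 of 198 genes had an unadjusted p under 0.05, against 2636 of all 9325 genes. With upper quartiles set equal 5 were higher (2.53%, against 3.72% of all genes) and 9 lower (4.55%, against 6.34%). Without the replicate block both counts were 0, as in the whole table. Without equal medians both were 0 (against 0.794% and 0.161% of all genes), and without replicate 2 also (against 0.141% and 0.0435%). Without replicate 3 they were 3 and 3 (1.71% each, against 1.82% and 1.75%). Without replicate 1 they were 2 (1.03%, against 2.71%) and 4 (2.05%, against 2.18%).

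The higher genes were ZNF337, ZNF3, ZNF232, ZNF282, ZNF777 and ZNF222, joined outside the rule for named genes by ZNF263 and ZNF184. ZNF337 had 3.56, 3.32 and 4.23 TPM in UPF1-1 total RNA, against 2.06, 2.16 and 3.54 TPM in UPF1-2 total RNA. It was higher in each replicate, by 0.41 ± 0.06 (limma adjusted p = 0.01). ZNF3 had 6.44, 5.79 and 7.46 TPM in UPF1-1, against 3.71, 3.84 and 7.08 TPM in UPF1-2 total RNA. The groups overlapped through replicate 3, and within numbers the difference was 0.38 ± 0.06 (limma adjusted p = 0.012).

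The lower genes were ZNF664, at -0.42 ± 0.08 (limma adjusted p = 0.017), and ZNF260, at -0.41 ± 0.08 (adjusted p = 0.023), with ZNF480, ZNF726, ZNF483 and ZNF793 outside the rule. ZNF480 had 0.872, 0.946 and 0.845 TPM in UPF1-1 total RNA, against 1.27, 1.25 and 1.57 TPM in UPF1-2 total RNA, with no overlap. ZNF726 had 0.835, 0.752 and 0.802 TPM in UPF1-1, against 1.01, 1.19 and 1.43 TPM in UPF1-2 total RNA, again with no overlap. Both lie on chromosome 19.

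UPF1-1 and UPF1-2 cells were each set against GFP cells, whose libraries both comparisons share and whose level chose the genes, so the counts are a description. With UPF1-1, 17 of 198 ZNF genes were higher (8.59%, against 8.38% of all genes) and 16 lower (8.08%, against 7.79%), shares close to those of the whole table. The median was 0.00. With UPF1-2, limma called 0 higher and 0 lower (against 0.279% and 0.0965% of all genes), with a median of -0.04. At an unadjusted p under 0.05 there were 19 of 198, against 1128 of all 9325 genes. In the authors' deposited table no ZNF gene had a sleuth q under 0.05 in any of the 3 comparisons of total RNA (0 of 199). The lowest was 0.0754, for ZNF480 in UPF1-1 against GFP. Few genes of any kind had such a q. Among the 9325 genes tested here they numbered 36 in UPF1-1 against GFP, 4 in UPF1-2 against GFP and 12 in UPF1-1 against UPF1-2. The 0 is therefore not particular to ZNF genes. Without the replicate block both UPF1-1 counts were 0 (against 0.118% and 0.0536% of all genes). Without equal medians they were 5 higher (2.53%, against 2.85% of all genes) and 2 lower (1.01%, against 0.375%). Without replicate 1 they were 6 (3.08%, against 3.43%) and 11 (5.64%, against 2.96%). Without replicate 2 they were 4 (2.04%, against 1.47%) and 2 (1.02%, against 0.773%). With upper quartiles set equal they were 13 (6.57%, against 6.84%) and 19 (9.6%, against 10.5%).

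ZNF232, a SCAN family member, had 2.93, 2.41 and 2.73 TPM in UPF1-1 and 1.51, 1.58 and 2.58 TPM in UPF1-2, against 1.36, 1.56 and 1.59 TPM in GFP total RNA. All UPF1-1 values exceeded all GFP values, by 0.58 ± 0.07 on the log2 scale, and the UPF1-2 difference was 0.20 ± 0.07 and did not pass. ZNF473 had 3.98, 3.53 and 3.91 TPM in UPF1-1 and 2.61, 2.99 and 3.87 TPM in UPF1-2, against 2.18, 2.10 and 2.46 TPM in GFP total RNA. Both UPF1 lines lay above all GFP values, by 0.56 ± 0.07 with UPF1-1 and 0.37 ± 0.07 with UPF1-2, of which the first passed. ZNF337, ZNF3, ZNF777 and ZNF282 rose by 0.47, 0.46, 0.32 and 0.30 with UPF1-1.

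ZNF260 had 2.19, 1.95 and 1.59 TPM in UPF1-1 and 2.06, 2.42 and 3.35 TPM in UPF1-2, against 2.85, 2.85 and 2.75 TPM in GFP total RNA. All UPF1-1 values lay under all GFP values, by -0.56 ± 0.08 on the log2 scale, and UPF1-2 overlapped GFP. ZNF664, ZNF644, ZNF850 and ZNF770 fell with UPF1-1, with differences of -0.43, -0.42, -0.42 and -0.40. Among scarcer genes named after their values were seen, ZNF480 had -0.69 ± 0.08 and ZNF726 -0.61 ± 0.07, with GFP levels of 1.62, 1.60 and 1.61 TPM and of 1.31, 1.44 and 1.35 TPM. Of the 16 lower genes 8 lay on chromosome 19, and of the 17 higher ones 3. Of the 93 ZNF genes tested on chromosome 19, 8.6% were lower, close to the 7.62% of the 105 elsewhere. The shares of higher genes were 3.23% on chromosome 19 and 13.3% elsewhere, given without a test. The median recovery with UPF1-1 was 0.86 over the 16 lower genes and 0.00 over the 17 higher ones. However, recovery and the UPF1-1 difference from GFP share the UPF1-1 total RNA libraries.

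**Figure D5:**
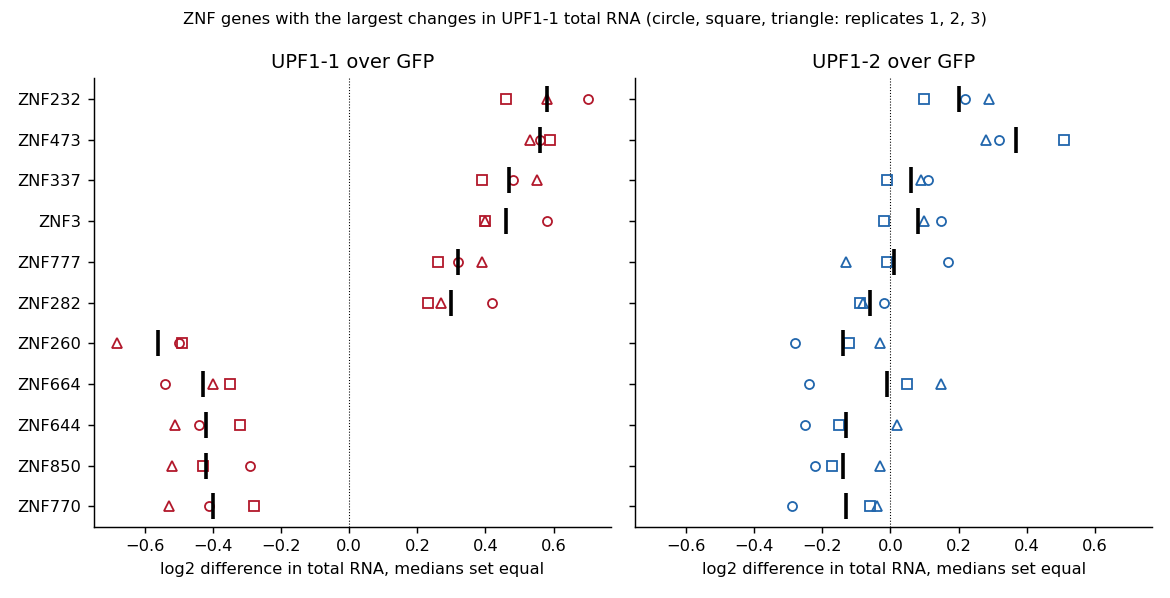
Log2 difference in total RNA from GFP cells with library medians set equal, for the 11 ZNF genes of at least 2 TPM with the largest UPF1-1 changes, UPF1-1 left and UPF1-2 right; symbols are replicate numbers and black bars the fitted value. The 6 upper genes lie right of 0 with UPF1-1, at 0.30 to 0.58, and the 5 lower ones left of it, at -0.56 to -0.40, while the fitted UPF1-2 values lie nearer 0 for all 11.

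Promoters were read as a feature that the choice of the genes did not use. RefSeq (GRCh38.p14) gave the 250 bases upstream of the annotated start for 174 of the 199 genes. Among the named genes with a promoter, the 3 that rose most and the 3 that fell most with UPF1-1 against GFP were ZNF232, ZNF337, ZNF3, ZNF260, ZNF664 and ZNF644. Those with a match to a searched motif are printed 5′ to 3′ on the strand of the gene, and capitals mark the matches. These are the CCAAT box, which reads ATTGG on the other strand, the CCGGAAG core of ETS factor sites, and the element ACTACA, which reads TGTAGT on the other strand and was added after these sequences were viewed.
ZNF337 (GRCh38.p14 chr20:25696854-25697103, minus strand): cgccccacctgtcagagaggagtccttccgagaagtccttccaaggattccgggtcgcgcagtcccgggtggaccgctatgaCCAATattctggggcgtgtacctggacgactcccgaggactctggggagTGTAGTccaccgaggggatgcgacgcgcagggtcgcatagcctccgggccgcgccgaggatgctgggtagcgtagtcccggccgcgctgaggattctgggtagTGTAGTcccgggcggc
ZNF3 (GRCh38.p14 chr7:100081724-100081973, minus strand): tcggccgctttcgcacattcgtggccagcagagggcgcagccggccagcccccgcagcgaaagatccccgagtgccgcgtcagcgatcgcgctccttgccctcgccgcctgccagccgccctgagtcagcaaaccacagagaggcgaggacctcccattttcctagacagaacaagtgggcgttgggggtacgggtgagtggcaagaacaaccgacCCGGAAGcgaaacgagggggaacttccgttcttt
ZNF260 (GRCh38.p14 chr19:36528272-36528521, minus strand): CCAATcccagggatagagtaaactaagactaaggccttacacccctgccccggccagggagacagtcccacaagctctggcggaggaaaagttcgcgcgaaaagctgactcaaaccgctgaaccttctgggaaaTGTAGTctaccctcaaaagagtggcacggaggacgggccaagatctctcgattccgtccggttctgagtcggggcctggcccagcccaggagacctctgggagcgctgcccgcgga
ZNF644 (GRCh38.p14 chr1:91022036-91022285, minus strand): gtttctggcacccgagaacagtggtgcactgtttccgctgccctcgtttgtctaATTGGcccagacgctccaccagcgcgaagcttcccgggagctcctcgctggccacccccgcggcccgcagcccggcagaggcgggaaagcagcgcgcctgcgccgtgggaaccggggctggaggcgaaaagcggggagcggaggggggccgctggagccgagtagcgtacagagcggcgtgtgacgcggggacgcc
ZNF337 held 2 TGTAGT matches and a CCAAT box, ZNF260 a TGTAGT and a CCAAT box, ZNF3 an ETS core and ZNF644 an ATTGG. ZNF232 and ZNF664 held none of the searched motifs.

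Across the 174 ZNF promoters the ETS core CCGGAAG, searched on both strands, was present in 57 (32.8%), against 8.82% of all 27305 RefSeq promoters and 11.8% of 15843 protein-coding ones. ACTACA, added after promoters of this set were viewed, was present in 42 (24.1%), against 7.76% and 7.52%. Its excess here is therefore a description only. The CCAAT box was present in 77 (44.3%), against 33.0% and 34.5%. The CRE TGACGTCA was in 9 ZNF promoters (5.17%), against 1.77% of all and 2.32% of protein-coding ones. The NRF1 site was in 5 (2.87%), against 1.13% and 1.48%, and the YY1 site in 3 (1.72%), against 0.824% and 0.915%. The ATF4 composite element TGATGNAA was in 2 (1.15%), against 3.19% and 2.21%. These counts are small. All but the last were thus found in a larger share of ZNF promoters than of all or of protein-coding promoters, which is given without a test. For ACTACA this holds no weight, since these promoters led to its choice. The ZNF genes were chosen as expressed, while the promoters they were set against were not chosen by expression. How far that sets these shares was not tested. Base composition differed little from protein-coding promoters, with median GC contents of 62.0% and 62.4% and 19 and 17 CpGs.

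With UPF1-1 against GFP, CCGGAAG was present in 4 of the 13 higher genes with a promoter and 3 of the 15 lower ones, ACTACA in 4 and 4, and CCAAT in 7 and 9. These counts are few and carry no test. A match says only that the letters are present in this window.

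The last set was the machinery through which KRAB zinc fingers silence chromatin, 26 genes, all tested. With UPF1-1 against GFP total RNA 5 were lower (19.2%, against 7.79% of all genes) and 0 higher (against 8.38%), namely ATF7IP at -0.40, MPHOSPH8 at -0.33, UHRF1 at -0.33, FAM208A at -0.32 and RBBP4 at -0.24. The 5 were 0 without the replicate block (against 0.0536% of all genes), without equal medians (0.375%) or without replicate 2 (0.773%). They were 1 without replicate 1 (2.96%) and 3 without replicate 3 (6.87%). ATF7IP stabilises SETDB1, and FAM208A and MPHOSPH8 belong to the HUSH silencing complex. With UPF1-2 0 of the 26 passed in either direction by limma, with 3 at an unadjusted p under 0.05 (against 1128 of all 9325 genes). MPHOSPH8 was also lower in UPF1-1 than in UPF1-2, by -0.38 ± 0.07.

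In the IPs 10 of the 26 were higher (38.5%, against 30.8% of all genes) and 8 lower (30.8%, against 43.9%) with UPF1-1. With UPF1-2, 17 were higher (65.4%, against 31.5%) and 6 lower (23.1%, against 44.2%). Without the culture block these were 4 and 2 with UPF1-1 (against 19.8% and 32% of all genes). With UPF1-2 they were then 7 and 1 (against 21.1% and 33.1%). Without equal medians all 26 were higher with both isoforms, as were 95.8% of all genes with UPF1-1 and 96% with UPF1-2. The isoform difference was negative in 8 (30.8%, against 6.27% of all genes) and positive in 0. TRIM28, the co-repressor that KRAB domains bind, had 103, 92.9 and 232 TPM in UPF1-1 IPs against 43.7, 42.6 and 98 TPM in UPF1-1 total RNA. In UPF1-2 cells it had 154, 136 and 313 TPM in IPs against 33.7, 37.7 and 93 TPM in total RNA. Its recovery was -1.37 ± 0.09 with UPF1-1 and -0.61 ± 0.09 with UPF1-2, a difference of -0.76 (limma adjusted p = 0.018). SETDB1 had 0.21 ± 0.07 and 0.68 ± 0.07, a difference of -0.47 (adjusted p = 0.026). The count of 8 negative differences was 0 without the culture block, without equal medians, without replicate 1 or without replicate 2. The whole table also gave 0 in these settings. It was 5 of the 26 without replicate 3 (against 4.95% of all genes) and 4 with a pseudocount of 1 (against 4.14%). With upper quartiles set equal 5 were negative (against 3.83% of all genes) and 1 positive (against 7.07%).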

How the data were processed

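RNA was depleted of rRNA and made into libraries with a TruSeq kit, per the labels' protocols. The tools listed in the submitters' processing notes, without role or version, are cutadapt, kallisto and sleuth, beside the genome build hg19. TPM per library, 1 transcript per gene, were deposited by the authors. So were ratios of IP to total TPM, log2 fold changes, sleuth p-values and q-values, and natural log values (effects and mean estimated counts), per the file headers. The deposited ratios of the members matched recomputed ones within 1e-04 in 100% of entries. The genes, lists and tests here were chosen with earlier results of these data known.

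TPM plus 0.5 was log2 transformed, library medians were set equal, and limma 3.58.1 (R 4.3.3) was fitted with a trend to every gene that reached 1 TPM in 3 or more of its libraries. Total RNA used 9 libraries, 9325 genes and the replicate number as a block. IP used 12 libraries, 11969 genes and the culture (isoform and number) as a block. P-values were 2-sided and adjusted by Benjamini-Hochberg over all genes, with a threshold of 0.05. Deviations from group means of same-numbered libraries correlated at 0.70 to 0.95 for the 9 pairs of total RNA. For the 18 pairs of the IP fit the range was 0.57 to 0.91. Libraries of different numbers correlated at -0.89 to 0.80 in total RNA and at -0.86 to 0.74 in the IP fit. The ranges overlapped, so these values do not establish the pairing. The numbers were taken to pair the samples, which no label stated. The fits were also run on simulated data with effects of the replicate number built in, so that run could not check the pairing.

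Named genes were the 10 highest in GFP total RNA, those at the limit, members at or below 0.5 TPM in every library of an IP group, and per comparison the 6 largest changes each way past the threshold with at least 2 TPM and 1 sign in all 3 replicates. For relative effective length, 3 estimates per gene agreed within 5% for 99.7% of 12204 genes. Depth is known only as mean estimated counts per gene. Protein domains were not used here.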

Additional observations from a re-analysis of the deposited data

Results flagged for a closer look

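A test of the difference itself set the isoforms apart for the ZNF genes below, by limma with Benjamini-Hochberg adjustment over all genes, in the fit with a block. In recovery, UPF1-1 minus UPF1-2 was 0.89 for ZNF260, 0.75 for ZNF664, 0.60 for ZNF367, 0.49 for ZNF121, 0.47 for ZNF770 and 0.46 for ZNF529. It was -0.62 for ZNF622, -0.62 for ZNF282 and -0.40 for ZNF324. Without replicate 1 or without replicate 2 none of these 9 passed, with adjusted p of 0.29 to 0.34 and 0.069 to 0.2. No gene of the whole table passed in either setting. Without replicate 3, ZNF260, ZNF664, ZNF367, ZNF529 and ZNF622 still passed, at 0.028 to 0.037.

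In total RNA, UPF1-1 minus UPF1-2 was 0.41 for ZNF337, 0.38 for ZNF3, 0.38 for ZNF232, 0.37 for ZNF282, 0.31 for ZNF777 and 0.28 for ZNF222. It was -0.42 for ZNF664 and -0.41 for ZNF260. Without replicate 2 none of these 8 passed, with adjusted p of 0.13 to 0.25. For ZNF777 the difference was 0.19 without replicate 3, against 0.31 with it. ZNF282, ZNF664 and ZNF260 appear in both lists, with opposite signs, and both differences hold the same total RNA libraries.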

How the results depend on the processing

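Without equal medians, ZNF genes higher and lower numbered 195 and 1 in UPF1-1 recovery and 198 and 1 in UPF1-2 recovery. They numbered 0 and 0 in the isoform difference and in UPF1-1 against UPF1-2 total RNA, and 5 and 2 in UPF1-1 against GFP. The medians in this setting were 2.67, 2.62, 0.03, 0.09, 0.08 and, for UPF1-2 against GFP, -0.01. The recoveries that turned positive were, with UPF1-1, 0.17 for ZNF580, 0.32 for ZNF768, 0.36 for ZNF428, 0.49 for ZNF546, 0.78 for ZNF511 and 0.91 for ZNF574. With UPF1-2 they were 0.45 for ZNF580, 0.46 for ZNF768, 0.48 for ZNF428, 0.74 for ZNF511, 0.77 for ZNF593 and 0.90 for ZNF546. This follows from the constants of 2.56 and 2.53 that equal medians remove.

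Without the replicate block, 47 ZNF genes were higher in UPF1-2 recovery, and the counts of the isoform difference and of both UPF1-1 comparisons of total RNA were 0. Without the replicate block and without equal medians the recovery counts were 187 and 1 with UPF1-1 and 189 and 1 with UPF1-2, and those 3 comparisons gave 0; the signs and medians were those without equal medians. Named results numbered 52, of which 28 lost their call without the block.

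With upper quartiles set equal, the isoform difference gave 28 higher and 3 lower, and UPF1-1 against UPF1-2 total RNA 5 higher. Medians in that setting were 0.08, -0.03, 0.08 and -0.02 in UPF1-1 recovery, UPF1-2 recovery, the isoform difference and UPF1-1 against UPF1-2 total RNA. A pseudocount of 0.1 gave medians of 0.09 and 0.11 in the recoveries and a chromosome 19 difference of 0.11 with UPF1-2. A pseudocount of 1 gave 0.04 in UPF1-2 recovery and 3 lower in the isoform difference. Without the filter the median of UPF1-1 against UPF1-2 total RNA was 0.06.

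Leaving out each replicate in turn gave 0 to 12 higher and 0 to 3 lower in the isoform difference, with medians of -0.02 to 0.03. Of all genes, 0 to 4.45% were then higher and 0 to 4.95% lower. UPF1-1 against UPF1-2 total RNA gave 0 to 3 higher (against 0.141 to 2.71% of all genes) and 0 to 4 lower (against 0.0435 to 2.18%). UPF1-1 against GFP gave 4 to 13 higher (against 1.47 to 7.59%) and 2 to 13 lower (against 0.773 to 6.87%). UPF1-2 against GFP had medians of -0.05 to 0.01, and UPF1-2 recovery 0.09 to 0.12. The chromosome 19 difference ran from 0.20 to 0.26 with UPF1-1 and 0.13 to 0.22 with UPF1-2.

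A GFP mean of at least 2 TPM left 89 genes, so counts were smaller. UPF1-1 recovery gave 38 higher (42.7%, against 30.8% of all genes) and 31 lower (34.8%, against 43.9%). UPF1-2 recovery gave 37 higher (41.6%, against 31.5%) and 35 lower (39.3%, against 44.2%). The isoform difference gave 9 higher (10.1%, against 4.43%) and 3 lower (3.37%, against 6.27%). In UPF1-1 against UPF1-2 total RNA 6 were higher (6.74%, against 5.49%) and 2 lower (2.25%, against 4.02%). UPF1-1 against GFP gave 10 higher (11.2%, against 8.38%) and 7 lower (7.87%, against 7.79%). Choosing genes by the mean of all 9 total RNA libraries gave 1 higher in UPF1-2 against GFP. Causes were not tested where none is named. The number of replicates, 3 per group, and low TPM limit what could be called.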
